A study of Mus musculus with 43 samples.

Results

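The retinas of male and female mice that drank short-chain fatty acids (SCFA) were compared at day 7 after laser injury (7 dpl). The comparison used 6 of the 43 RNA-seq libraries of the study, 3 from SCFA-treated males and 3 from SCFA-treated females. They were chosen by their labels, and only replicates 1 to 3 of each sex were taken, since these stand among the first 31 sample columns of the count table. Differences were read on the autosomes. Genes of chromosomes X and Y served only to check the labels.

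SCFAs are the products of fiber fermentation by gut bacteria. They act through G-protein-coupled receptors and as inhibitors of histone deacetylases, and they are known to temper microglia. In the laser model a burn breaks Bruch's membrane, microglia and Müller cells react, and new vessels grow from the choroid, as in the neovascular form of age-related macular degeneration. Sex is known to affect microglia and the response to injury in nervous tissue.

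All mice were C57BL/6J and were 9 weeks old when the laser burns were set in the eye. The treated mice of both sexes drank 67.5 mM sodium acetate, 25 mM butyrate and 40 mM propionate in their water from 3 weeks before the laser until collection, in the molar values of the labels, whose gram values for butyrate and propionate would fit only if exchanged. The control mice, used here only for comparison, had the laser without SCFA. The study kept 2 female and 3 male SCFA libraries at 7 dpl after quality assessment, whereas all 3 female libraries among those columns are used here. The libraries of its own comparisons were males 2, 4 and 5 and females 1 and 3. Males 1 and 3 and female 2, which are used here, were thus not among them. It collected retinas at several days, and the groups used beside the treated 7 dpl mice were control males and females at 7 dpl and SCFA-treated males and females at 14 dpl. Each library came from a pool of 2 retinas of different mice of one group, so a pool averages 2 animals, and p-values measure the spread between such pools. The tissue was whole retina, in which fewer cells of a type and less RNA per cell cannot be told apart.

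Levels of single genes are given in CPM by adjusted library totals, described with the processing. The 6 libraries held between 15138510 and 20980692 counts. Taken as the floor, 3 counts stood for 0.143 to 0.198 CPM, here the usual scaling of counts by the total of a library. These floors cover counting error only. Xist had 9948 to 11384 counts in the females and 0 to 1 in the males, so the sex of all 6 libraries matched their labels. Treatment was taken from the titles, since the treatment tag of the labels reads control for every sample, and no gene checks it. Gnat1, the rod transducin gene, was at 11430 to 23206 CPM, as belongs to retina. The library labelled female control 7 dpl replicate 2 carried counts of genes of chromosome Y and was left out of the control group. Counts of genes passing are also given with it added, while control levels, fold changes and list counts are without it. Male libraries 1 and 3 stood apart from male library 2 in their composition. Mitochondrial mRNA made up 13.8% and 14.8% of their counts against 7.65% in male 2 and 6.88 to 9.26% in the females. Gnat1 was at 14101 and 11430 CPM in males 1 and 3, at 23206 CPM in male 2 and at 16456 to 21610 CPM in the females. Male 2 lay within or beyond the female values on both measures, and the part of this split in the results was not tested.

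Among autosomal genes, the sexes differed little beyond the spread between libraries of one sex. Of 15574 autosomal genes tested with edgeR's quasi-likelihood test, 1 passed the study's thresholds for a differentially expressed gene (DEG), an adjusted p under 0.1 with an absolute log2 fold change over 1, which is 0.00642% of those tested. That gene was Nr4a3, higher in males. DESeq2 called 64 genes, of which 58 were among the genes tested by edgeR, and 27 of these 58 were unnamed loci of the GENCODE class TEC, transcribed loci of unsettled status. At an unadjusted p under 0.05 the count was 1022 (6.56%), with 644 on the male side and 378 on the female side. The median absolute log2 fold change over all autosomal genes was 0.177, the 90th percentile 0.564 and the 99th percentile 1.35. The signed median was 0.00 on the log2 scale, as the scaling of the libraries sets it.

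A log2 fold change over 1 in size was estimated for 367 autosomal genes, 2.36% of those tested, and 259 of them were higher in males. Of the 9661 autosomal genes with a mean over 10 CPM, 0.259% were over 1 in size. The 95% interval of the log2 fold change lay wholly between -1 and 1 for 95.3% of these better measured genes and for 74.3% of all autosomal genes. A log2 fold change past 1 between treated males and females thus lay outside the interval for most of the well measured genes.

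Pairs of libraries gave the same picture. The root mean square difference in log2(CPM + 1) over autosomal genes averaged 0.415 between a male and a female library, 0.399 between males and 0.388 between females. The closest of all pairs was male 2 with female 2, at 0.258, and the pair of males 1 and 3 followed at 0.301. The typical spread between replicates, given by edgeR as the biological coefficient of variation, was 0.201 here against 0.126 for the control libraries at 7 dpl and 0.139 for the treated libraries at 14 dpl.

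**Figure D1:**
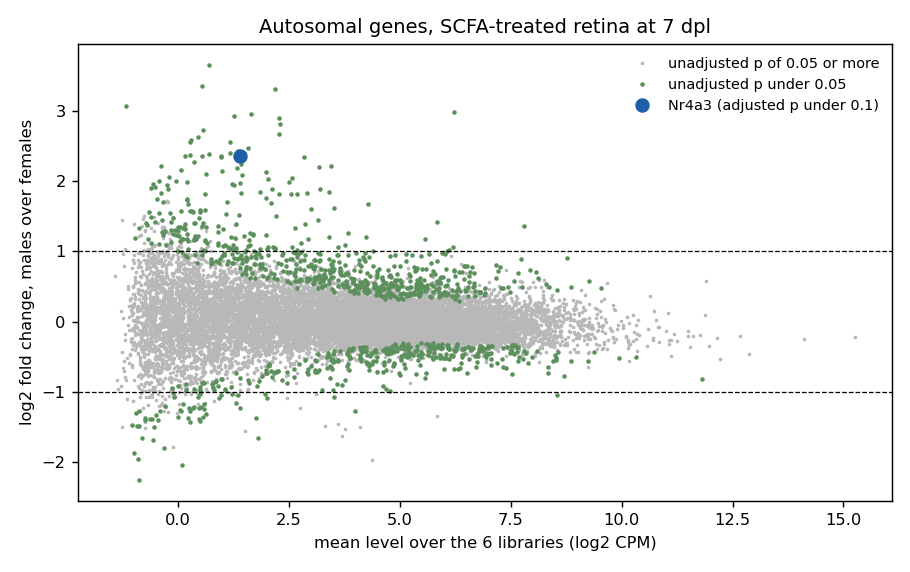
Size of the difference between the sexes. The plot shows the estimated log2 fold change, males over females, of autosomal genes at 7 dpl under SCFA, and Nr4a3, at 2.36, is the single gene past both thresholds.

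**Figure D2:**
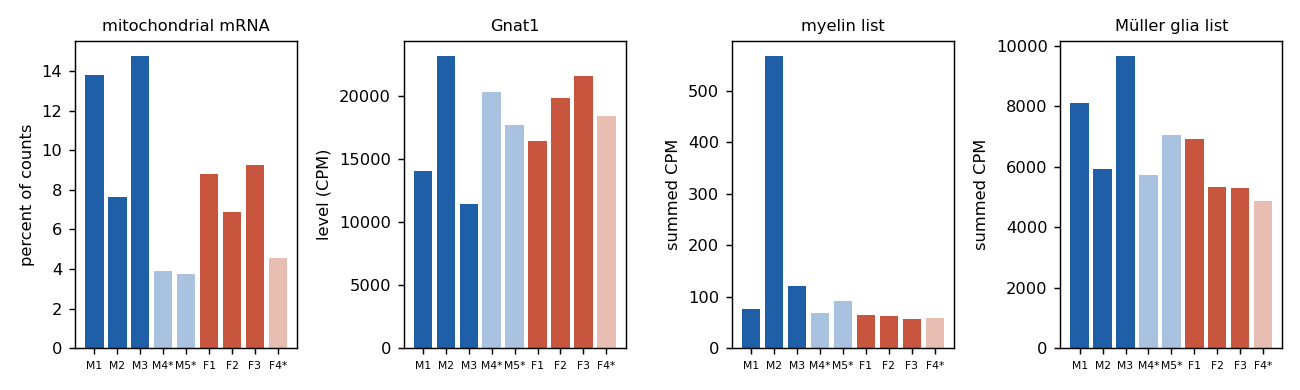
Composition of the 9 SCFA libraries at 7 dpl. Each bar is 1 library and its height a percent of counts, a level in CPM or a summed level in CPM (M male, F female, an asterisk marks the later columns of the table), and males 1 and 3 stand high for mitochondrial mRNA, at 13.8% and 14.8%, and low for Gnat1, at 14101 and 11430 CPM, while male 2 lies with the females or beyond them.

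Nr4a3 encodes an orphan nuclear receptor of the NR4A family, whose transcription is switched on rapidly by many stimuli. It lies on chr4:48045153-48086447, plus strand, of GRCm38. Its level was 4.09, 5.03 and 4.03 CPM in the 3 males and 1.01, 0.541 and 0.996 CPM in the 3 females. Every male library was at least as high as 4.03 CPM and every female library at or below 1.01 CPM, so the sexes did not overlap. The log2 fold change was 2.36 with a standard error of 0.345 and a 95% interval from 1.60 to 3.12, a 5.13-fold difference, at an adjusted p of 0.0575 (edgeR). The 3 libraries of the later columns lay on the same sides, with 2.95 and 4.95 CPM in males 4 and 5 and 1.29 CPM in female 4.

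The call was close to its threshold. Leaving out male 1 gave an adjusted p of 0.226, male 3 0.130, female 1 0.220, female 2 0.3003 and female 3 0.343, while without male 2 it was 0.0160 (edgeR). The log2 fold change itself stayed between 2.06 and 2.51 over all 19 alternatives tried, and the gene passed the thresholds in 10 of them.

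The same gene did not separate the sexes in the other groups. Control males at 7 dpl had 7.16, 4.29 and 4.00 CPM, and control females had 9.31 and 1.27 CPM, with a log2 fold change of -0.08 (adjusted p = 0.965, edgeR). The 3 compared treated females at 7 dpl lay below both control females, and the 3 compared treated males within the range of the control males. The later treated libraries did not all follow. Female 4, at 1.29 CPM, lay just above the lower control female, and male 4, at 2.95 CPM, below every control male. The difference of the sex effect between treated and control mice was 2.44 on the log2 scale and did not pass (adjusted p = 0.376, edgeR). At 14 dpl under SCFA the males had 2.54, 2.50 and 5.28 CPM and the females 4.69, 4.48 and 6.04 CPM. The sex effect at 7 dpl exceeded that at 14 dpl by 2.92 on the log2 scale (adjusted p = 0.0497, edgeR), so the males were relatively higher at the earlier day.

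The upstream sequences of the leading pair of genes are shown because cyclic AMP response elements, the binding sites of CREB, are a textbook feature of rapidly induced genes. The bases come from RefSeq starts on GRCm38.p6, end before the first exon that GENCODE gives for the gene, and are written 5′ to 3′ on the gene's strand. Capitals mark TGACG on either strand, the full element TGACGTCA and the TATA box TATAAA. Nr4a3 lies on chr4:48045055-48045152, plus strand, and Dio2 on chr12:90739039-90739288, minus strand.
Nr4a3: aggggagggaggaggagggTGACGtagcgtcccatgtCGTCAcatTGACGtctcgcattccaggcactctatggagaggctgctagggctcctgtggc
Dio2: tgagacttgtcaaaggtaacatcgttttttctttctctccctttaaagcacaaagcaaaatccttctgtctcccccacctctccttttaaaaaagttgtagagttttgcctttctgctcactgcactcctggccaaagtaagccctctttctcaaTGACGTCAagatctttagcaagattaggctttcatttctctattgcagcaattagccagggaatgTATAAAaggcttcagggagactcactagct

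The stretch of Nr4a3 held 3 matches to TGACG, and its full window of 250 bases before the RefSeq start held 4, a number reached by 45 of 31396 autosomal RefSeq promoters (0.143%). Dio2 carried the full element 95 to 88 bases before its start and the TATA box 30 to 25 bases before it. TGACGTCA was present in 1.58% of all promoters, in 1 of the 9 genes named here as higher in males that had a promoter, Nr4a3 and Dio2 included, and in 0 of the 8 lower. The shorter TGACG was present in 17.9% of all promoters, in 3 of those 9 and in 4 of those 8, and it was searched after the sequences had been seen. The shares are of single promoters, whereas a gene was counted if any of its promoters matched, which raises the counts of genes. Per1, Lpin2, Rhobtb1, Slco4a1, Slc17a6 and Rorb each had more than 1 promoter. TGANTCA, the AP-1 site, occurred in 6.77% of promoters, in 0 of the 9 and in 1 of the 8. ACANNNTGT, a loose form of the androgen and glucocorticoid element, occurred in 5.86% of promoters and in none of the 17. The palindromic estrogen response element occurred in 0.0669% of promoters and in none of the 17. A match is a description of letters and not a bound site.

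The remaining genes with the smallest p-values are described next, 9 higher and 10 lower in males, taken by p among autosomal genes with an established name. None of these 19 passed the threshold on the adjusted p, and their groups did not overlap, as was true of 10.9% of all autosomal genes, 5.62% with the males above and 5.3% with the males below. For the 20 genes with Nr4a3 included, the sign in the libraries of the later columns was the same for 16, 8 of the higher and 8 of the lower genes, against 51.7% of all autosomal genes and 56.0% of those at an unadjusted p under 0.05. That sign compares the mean log2 level of the later males with the single later female. For Lypd2 and Lrfn2 it rested on log2 differences of only 0.017 and -0.042.

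Dio2, the deiodinase that converts thyroxine into active thyroid hormone, had 83.2, 54.9 and 112 CPM in males and 30.0, 35.2 and 28.2 CPM in females. The lowest male stood well above the highest female, and male 2 was the lowest male. The log2 fold change was 1.42 with a standard error of 0.231 (adjusted p = 0.119, edgeR). In the later columns the males had 33.6 and 64.1 CPM and the female 20.4 CPM. With all 9 treated libraries and the column position as a block, the log2 fold change was 1.38 and the adjusted p 0.0450, and without the block they were 1.29 and 0.510 (edgeR). With males 2, 4 and 5 against females 1 and 3, the libraries of the study's own comparisons, the log2 fold change was 0.77 (adjusted p = 0.208, edgeR). At 14 dpl the order of the sexes was the opposite, with 17.6, 38.5 and 33.4 CPM in males and 68.6, 47.7 and 88.8 CPM in females, without overlap. That difference at 14 dpl did not itself pass (adjusted p = 0.543, edgeR). The change of the sex effect between the days was 2.62 on the log2 scale (adjusted p = 0.0497, edgeR).

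Rhou, an atypical small GTPase, had 29.7, 20.4 and 29.4 CPM in males and 12.4, 9.52 and 12.5 CPM in females. Its log2 fold change was 1.21 with a standard error of 0.202 (adjusted p = 0.142, edgeR). The later libraries gave 23.1 and 21.4 CPM in males and 12.1 CPM in the female, close to the levels of the first 6. With all 9 libraries it passed both thresholds, at a log2 fold change of 1.11 and an adjusted p of 0.0158 with the column position as a block, and at 1.09 and 0.0356 without it (edgeR). With males 2, 4 and 5 against females 1 and 3 it was at 0.76 and did not pass (adjusted p = 0.164, edgeR).

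Fosl2, a Fos-family subunit of the transcription factor AP-1, had 14.5, 8.90 and 16.0 CPM in males and 4.81, 4.65 and 4.92 CPM in females. The females were tightly grouped, and male 2 was nearest to them. The log2 fold change was 1.45 with a standard error of 0.249 (adjusted p = 0.150, edgeR). Control libraries at 7 dpl did not separate by sex, with 13.4, 10.3 and 8.97 CPM in males and 15.1 and 6.07 CPM in females. At 14 dpl under SCFA the females were higher, at 10.4, 10.8 and 16.2 CPM against 5.94, 7.60 and 8.40 CPM, which did not itself pass (adjusted p = 0.543, edgeR). The sex effect changed by 2.22 on the log2 scale between the days (adjusted p = 0.0497, edgeR). With males 2, 4 and 5 against females 1 and 3 at 7 dpl, the log2 fold change of Fosl2 was 0.88.

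Cnp, an enzyme of myelin, had 33.5, 41.1 and 43.5 CPM in males and 23.3, 19.3 and 18.7 CPM in females. Per1, a repressor of the circadian clock, had 90.8, 98.5 and 88.2 CPM in males and 60.2, 58.2 and 48.3 CPM in females. Both genes had narrow groups in each sex, and male 2 lay with males 1 and 3. The log2 fold change of Cnp was 0.95 with a standard error of 0.163 (adjusted p = 0.150, edgeR) and that of Per1 was 0.73 with a standard error of 0.143 (adjusted p = 0.271, edgeR). Per1 gave 90.2 and 100.34 CPM in the later males and 63.1 CPM in the later female, and with all 9 libraries and the column position as a block its adjusted p was 0.0322 with a log2 fold change of 0.69, under the fold threshold.

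The other genes on the male side were Utp14b, Col9a2, Slc5a5 and Lypd2. Utp14b, a factor of ribosome assembly whose locus overlaps Acsl3 so that reads of the pair may not be told apart, had 73.4, 43.9 and 80.4 CPM in males and 35.6, 25.1 and 27.1 CPM in females. Col9a2, a chain of collagen IX, had 17.8, 22.1 and 24.1 CPM against 8.86, 13.7 and 9.84 CPM. Slc5a5, the sodium and iodide symporter, had 15.2, 17.7 and 14.7 CPM against 8.05, 9.84 and 8.55 CPM. Col9a2 and Slc5a5 did not keep their sign in the later libraries. Lypd2 was near the floor, with 0.672, 1.005 and 0.727 CPM in males and 0.101, 0.0541 and 0.117 CPM in females, all 3 females below 3 counts, and no fold is given.

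On the female side, Lpin2, a phosphatidate phosphatase of lipid synthesis, had 74.0, 69.5 and 63.6 CPM in males and 110, 119 and 115 CPM in females. The groups were narrow and far apart, with a log2 fold change of -0.73 and a standard error of 0.135 (adjusted p = 0.224, edgeR). The later libraries had 84.8 and 63.6 CPM in males and 90.8 CPM in the female. At 14 dpl the males were the higher sex, with 97.3, 89.8 and 79.8 CPM against 69.1, 70.0 and 64.2 CPM, which did not itself pass (adjusted p = 0.543, edgeR). The sex effect differed between the days by -1.12 on the log2 scale (adjusted p = 0.0497, edgeR).

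Rhobtb1, an atypical small GTPase with BTB domains, had 6.41, 9.76 and 5.82 CPM in males and 13.9, 17.0 and 15.6 CPM in females, a log2 fold change of -1.07 with a standard error of 0.230 (adjusted p = 0.362, edgeR). With all 9 libraries and the column position as a block it passed both thresholds, at -1.02 and an adjusted p of 0.0561, and without the block it did not, at -0.97 and 0.224 (edgeR). With males 2, 4 and 5 against females 1 and 3 it was at -0.63. Rorb, an orphan nuclear receptor needed for photoreceptor development, had 248, 253 and 227 CPM in males and 342, 354 and 518 CPM in females. Rorb kept its order in the later libraries, with 237 and 186 CPM in males and 353 CPM in the female.

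Xbp1, a transcription factor of the unfolded protein response, had 52.1, 68.6 and 51.3 CPM in males and 85.4, 87.8 and 101 CPM in females. Slc17a6, a vesicular glutamate transporter of retinal ganglion cells, had 26.1, 29.3 and 26.0 CPM in males and 35.03, 42.2 and 46.3 CPM in females. Both genes were the other way round in the later libraries, where Xbp1 had 88.8 and 100.1 CPM in males and 64.7 CPM in the female, and Slc17a6 had 57.9 and 56.4 CPM in males and 40.4 CPM in the female. Their order was therefore not the same in the 2 sets of libraries.

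Slco4a1, a transporter of organic anions, had a log2 fold change of -0.65, and Slc25a37, the iron importer mitoferrin of mitochondria, one of -0.80. Lrfn2, a synaptic adhesion protein, was at -0.91 and the glycosyltransferase gene Glt28d2 at -0.88. Srp54c, a subunit of the signal recognition particle, was at -0.99, and as it has close copies its reads may be shared with them. These 5 had adjusted p-values between 0.362 and 0.562 (edgeR), and all 5 kept their sign in the later libraries. For Lrfn2, however, the later males, at 14.3 and 18.4 CPM, lay on both sides of the female, at 16.8 CPM. The same held for Srp54c, with 41.3 and 21.7 CPM in males and 33.9 CPM in the female.

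**Figure D3:**
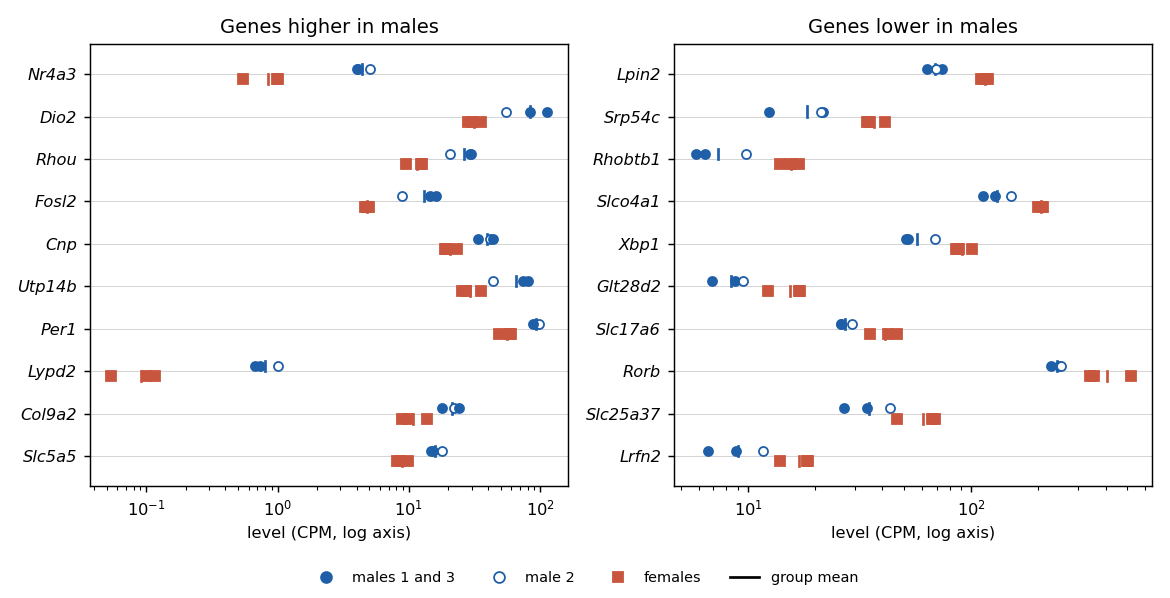
Levels of the 20 genes in each library. Points are the 3 male and 3 female libraries on a log axis of CPM, and the tick is the group mean. Nr4a3 males lie at 4.03 to 5.03 CPM and its females at 0.541 to 1.01 CPM, and in Dio2 and Fosl2 the open circle of male 2 is the male nearest to the females.

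**Figure D4:**
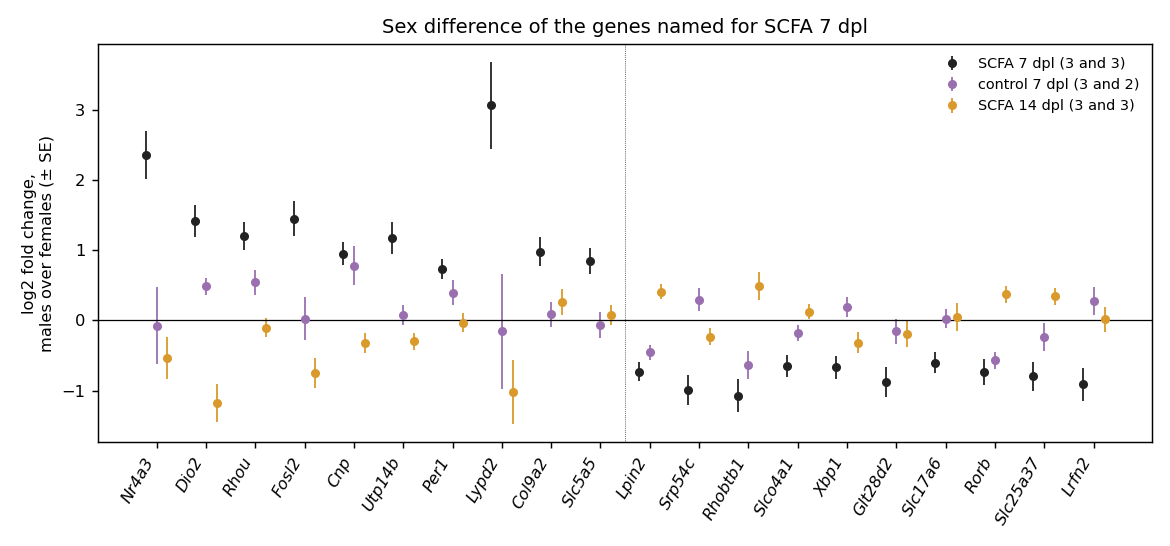
The sex difference of the same genes in 3 settings. The vertical axis is the log2 fold change, males over females, for SCFA at 7 dpl, control at 7 dpl and SCFA at 14 dpl, with standard errors as bars, and Dio2 stands at 1.42, 0.48 and -1.17 in these settings.

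The sex difference at 7 dpl was set beside that of the other groups. In control mice 19 autosomal genes passed (0.118% of 16165 tested), 13 higher and 6 lower in males. Of the 13 higher genes, 8 were crystallins of the lens list, whose median log2 fold change was 2.40 in control mice. With the female library that carried Y-linked counts added there were 0 (edgeR, 516 genes at an unadjusted p under 0.05). The median absolute log2 fold change was 0.177 in control mice, the same as under SCFA. At 14 dpl under SCFA no autosomal gene passed (edgeR, 0% of 15797), against 3 by DESeq2, and 7.72% (1219) had an unadjusted p under 0.05, and the median absolute log2 fold change was 0.135.

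A difference of the sex effect between treated and control mice was called by edgeR for 5 genes (0.0296% of 16908), all of them unnamed loci of class TEC. Gm26736 had 20.5, 7.04 and 22.4 CPM in treated males and 5.82, 3.84 and 4.22 CPM in treated females. In control mice it had 1.48, 1.98 and 1.87 CPM in males and 4.50 and 7.21 CPM in females, so the sexes were in opposite order. Its log2 difference of the sex effects was 3.57 (adjusted p = 0.0762, edgeR). The later treated libraries had 0.667 and 0.592 CPM of Gm26736 in males and 1.24 CPM in the female, so the males were not higher there. Male 2 was the lowest of the 3 treated males in all 5 loci, and with single libraries left out the count of genes was 0 to 1 for all but male 2, without which it was 656.

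Between 7 and 14 dpl the sex effect under SCFA differed for 7 genes (0.0426% of 16437). In the direction of relatively higher males at 7 dpl were Nr4a3, Dio2, Fosl2, Cnp and S100a6, and in the other direction Lpin2 and Pcdh15, a protocadherin of photoreceptors and hair cells. The test shares its 7 dpl libraries with the comparison by which 5 of these genes were ordered above. With single libraries left out the count was 0 to 9 for all but male 2 at 7 dpl, without which it was 274. S100a6, a calcium-binding protein of reactive glia, had 22.5, 25.5 and 25.9 CPM in males and 16.5, 11.8 and 9.14 CPM in females at 7 dpl. At 14 dpl it had 10.9, 9.15 and 10.04 CPM in males and 17.4, 16.7 and 12.7 CPM in females. The difference for S100a6 was 1.62 on the log2 scale (adjusted p = 0.0758, edgeR). The later libraries of S100a6 at 7 dpl, with 7.40 and 9.68 CPM in males and 8.59 CPM in the female, overlapped and lay near or below the lowest of the earlier females.

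Male 2 had a large effect on the counts of DEGs. Without it, 282 autosomal genes passed (1.76% of 15996), 189 higher (1.18%) and 93 lower (0.581%) in males. Of these, 244 were among the genes tested with all 6 libraries. In 131 of the 244 male 2 lay within the range of the females, in 99 it lay beyond the females on the side of the other males, and in 14 on the other side. The sign in the later libraries was the same for 52.5% of the 244, against 50.4% of all autosomal genes, so the shares lay close together. Loci of class TEC made up 44 of the 154 higher and 17 of the 90 lower genes, against 2.24% of all autosomal genes tested.

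Gene lists were read with the same 15574 genes as background, where 4.14% were on the male side and 2.43% on the female side at an unadjusted p under 0.05 and the median log2 fold change was 0.00. Apart from Nr4a3, no member of any autosomal list passed the thresholds. Counts below are of members at an unadjusted p under 0.05. Without male 2 such genes were far more common, 1509 of the 15574 on each side, against which the counts without it should be read. In control mice at 7 dpl, 1030 of these genes were on the male side and 984 on the female side. There 7 clock, 7 Müller glia, 6 gliosis, 9 interferon, 5 homeostatic microglia and 6 myelin genes were on the male side. On the female side there were 1 clock gene and 0 of the others. The lean of these lists to males was thus not particular to treated mice, with female control 2 left out. The lists were not counted with that library added. With it 516 control genes were at an unadjusted p under 0.05, against 2090 without it (edgeR). Immediate early genes had 2 on the male and 0 on the female side in control mice.

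Immediate early genes, the transcription factors and effectors induced within minutes of stimulation, had 6 of 19 members on the male side and 0 on the female side, with a median log2 fold change of 0.46. They were Nr4a3, Fosl2, Egr3, Fos, Nr4a2 and Npas4. Egr3, a zinc finger factor, had 4.58, 2.01 and 3.24 CPM in males and 0.861, 1.24 and 0.879 CPM in females. Nr4a2, a relative of Nr4a3, had 14.3, 6.65 and 15.4 CPM against 9.01, 4.16 and 5.39 CPM, with overlap. Members induced in the same way did not all lie on the male side. Nr4a1 had 27.6, 22.3 and 20.2 CPM in males and 24.2, 31.2 and 25.9 CPM in females, and Egr1 had a log2 fold change of -0.33 with a standard error of 0.282. Without male 2 the median was 0.33 and 4 members passed the thresholds, and with all 9 libraries and the block the median was 0.38.

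Of the circadian clock list, 3 of 16 members were on the male side, with a median of 0.15. They were Per1, the repressor Cry2 with a log2 fold change of 0.39 and the repressor Bhlhe40 with 0.36. Cry2 had 71.3, 66.0 and 74.1 CPM in males and 63.8, 53.7 and 43.6 CPM in females. Bhlhe40 had 52.7, 42.8 and 50.4 CPM in males and 38.0, 39.9 and 35.6 CPM in females. Without male 2, and likewise with all 9 libraries and the block, 5 of 16 clock genes were on the male side. Neither Cry2 nor Bhlhe40 overlapped between the sexes, and the hour of collection is not among the labels.

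Glial genes were next. Of the gliosis list, 4 of 13 members were on the male side, with a median of 0.17. Gfap, the filament of reactive astrocytes and Müller cells, had 61.1, 122 and 113 CPM in males and 50.2, 59.8 and 31.9 CPM in females, a log2 fold change of 1.06 with a standard error of 0.276 (adjusted p = 0.569, edgeR). The others were S100a6 at 0.98, Cebpd at 0.72 and C4b at 0.53. With all 9 libraries and the block 2 of 13 were on the male and 1 on the female side. Gfap was in the opposite order in the later libraries, with 41.0 and 21.3 CPM in males and 57.3 CPM in the female.

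Müller glia markers had 2 of 13 members on the male side, Crym and Sox9, with a median of 0.30. Without male 2 there were 6 on the male and 1 on the female side, and with all 9 libraries and the block 7 on the male side. Glul, the glutamine synthetase of these cells, had 4985, 3033 and 5735 CPM in males and 3900.4, 2544 and 2803 CPM in females. The summed level of the list was 8112, 5930 and 9669 CPM in males against 6932, 5336 and 5306 CPM in females. Males 1 and 3 were high, and male 2 lay within the females. Rod markers stood on the other side, with a median of -0.24 and 1 of 17 on the female side, the phosducin gene Pdc at -0.82. Gnat1, given above for each sex, was lower in males 1 and 3 than in every female and higher in male 2 than in every female. Without male 2 the rod median was -0.56 and 14 of 17 rod markers were on the female side at an unadjusted p under 0.05, with 1 past the thresholds.

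Cone markers had a median of -0.31 with 1 of 11 on the female side, Kcne2 at -0.67, and without male 2 a median of -0.52 with 8 of 11. Bipolar markers had a median of -0.24, with Grm6, their glutamate receptor, at -0.35 and Scgn at -0.42 as the 2 of 13 on the female side. Ganglion cell markers had a median of 0.02 with 1 of 14, Slc17a6. Amacrine and horizontal cell markers had a median of -0.05 with 0 of 14, and without male 2 a median of 0.13 with 4 on the male and 1 on the female side. No member of the neuronal lists passed the thresholds with all 6 libraries.

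Among the immune lists, homeostatic microglia markers had 2 of 19 on the male side with a median of 0.34. Siglech had 3.97, 3.21 and 5.88 CPM in males and 1.72, 2.22 and 1.46 CPM in females, a log2 fold change of 1.26 with a standard error of 0.331. Spi1, the transcription factor PU.1, was at 1.15 with a standard error of 0.485. The summed level of these markers was 126, 161 and 190 CPM in males and 116, 160 and 106 CPM in females, with overlap. Disease-associated microglia genes had 3 of 15 on the male side, Igf1 at 0.94, Lgals3 at 1.01 and Axl at 0.56, and a median of 0.13. Without male 2, 1 member of each microglial list passed the thresholds.

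The complement list had 3 of 15 on the male side with a median of 0.38. C3, the central component, had 3.30, 5.84 and 5.22 CPM in males and 1.77, 3.73 and 2.11 CPM in females. The C1 inhibitor gene Serping1 was at 0.69 and C4b at 0.53. In the later libraries C3 had 2.34 and 2.26 CPM in males and 5.35 CPM in the female, the opposite order. The interferon list had 2 of 14 on the male side with a median of 0.34. Ifit1 had 19.4, 7.99 and 32.9 CPM in males and 9.62, 7.30 and 8.02 CPM in females, and male 2 lay among the females. Without male 2 the interferon list had 7 of 14 on the male side, 1 of them past the thresholds, and a median of 0.50. The MHC list had 0 of 16 in either direction, with a median of 0.12, and without male 2 it had 2 on the male and 1 on the female side. The complement list had 2 of 15 without male 2 and 0 with all 9 libraries and the block.

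In the myelin list male 2 had by far the highest sum. Of 10 members tested 6 were on the male side, with a median of 0.80. Without male 2 the median was 0.55, with 2 of 10 on the male side and 7 of 10 above 0 in log2 fold change. With all 9 libraries and the block the median was 0.80, with 6 on the male side. Mbp, the myelin basic protein, had 17.8, 338 and 43.8 CPM in males and 17.5, 18.0 and 15.2 CPM in females. Male 2 stood far above all others, and the log2 fold change of Mbp was 2.98 with male 2 and 0.86 without it. The summed level of the list was 75.5, 568 and 120 CPM in males and 64.0, 61.7 and 55.9 CPM in females. The sums of the control males, 75.8, 272 and 848 CPM, varied as widely, against 67.3 and 57.1 CPM in the control females. The retina itself holds little myelin, and the optic nerve head is its nearest source. Its part in the result was not tested.

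Lens genes varied in the same manner. Their sum was 101, 361 and 130 CPM in males and 79.9, 250 and 777 CPM in females, with a median log2 fold change of -1.46 and 0 of 15 members in either direction. Without male 2 the median was -3.32, and 2 members passed the thresholds. Markers of cornea were not tested for any of 6 listed genes, being too low. Red blood cell markers had 0 of 4, with sums of 63.6 to 102 CPM in males and 26.3 to 89.4 CPM in females, pigment epithelium markers 0 of 12 with a median of 0.24, and skeletal muscle markers 1 of 3, Acta1 at -0.82.

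Vessels and matrix are central to the laser model. Endothelial and pericyte markers had 0 of 16 in either direction with a median of 0.12, and the list of VEGF, angiopoietin and hypoxia genes had 0 of 15 with a median of -0.06. Vegfa, the main driver of vessel growth, had 84.3, 91.4 and 78.9 CPM in males and 81.6, 86.0 and 77.6 CPM in females, and its log2 fold change was 0.05 with a standard error of 0.135. The levels of the sexes overlapped.

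Collagen and matrix genes had 4 of 20 on the male side and 2 on the female side, with a median of 0.02. Col18a1, whose collagen yields endostatin, had 73.8, 99.4 and 96.5 CPM in males and 30.6, 61.3 and 42.1 CPM in females, a log2 fold change of 1.01 with a standard error of 0.233 (adjusted p = 0.422, edgeR). Col5a1 was at 0.75, Col9a1 at 0.63 and the membrane metalloprotease gene Mmp14 at 0.49. Fibronectin, Fn1, was at -0.69. Col1a1 was at -1.66, but 1 female library held 12.9 CPM and the other 5 libraries 1.23 to 1.92 CPM. With all 9 libraries and the block 1 of 20 was on the male and 0 on the female side. In the later libraries Col18a1 had 58.2 and 35.3 CPM in males and 95.4 CPM in the female, the opposite order.

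None of the genes through which SCFAs are known to act passed the test between the sexes. Of 14 receptor and transporter genes 7 were tested, and 0 differed at an unadjusted p under 0.05, with a median of 0.05. The receptor genes Ffar2, Ffar3, Hcar1 and Hcar2 were too low to be tested. Slc16a1, the monocarboxylate transporter that carries lactate and SCFAs, had 316, 349 and 296 CPM in males and 313, 262 and 311 CPM in females. Histone deacetylase genes had 0 of 9 with a median of 0.04, and Hdac3 had a log2 fold change of -0.02 with a standard error of 0.132. Of the SCFA and ketone metabolism genes 1 of 17 was on each side, Acss3 at 1.34 and Acss2, a cytosolic acetyl-CoA synthetase, at -0.31, with a median of 0.18, and without male 2 there were 4 on the male and 2 on the female side.

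Genes of sex steroid action were 1 of 15 on the female side, Hsd17b12 at -0.38, with a median of -0.17. The estrogen receptor gene Esr1 had 2.69, 1.39 and 2.38 CPM in males and 2.78, 2.43 and 3.63 CPM in females, and its log2 fold change of -0.46 had a standard error of 0.344. Pgr, the progesterone receptor gene, was at -0.18 with a standard error of 0.318. Esr2 and the aromatase gene Cyp19a1 were too low to be tested. Among the 3 estrogen-related receptors, which bind no estrogen, Esrrb had 284, 415 and 225 CPM in males and 438, 588 and 550 CPM in females, without overlap (log2 fold change -0.77, adjusted p = 0.645, edgeR). In the later libraries Esrrb had 473 and 356 CPM in males and 553 CPM in the female.

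Ribosomal protein genes had 0 of 72 with a median of 0.16 and clustered protocadherins 0 of 43 with a median of -0.04. Without male 2 there were 12 of 72 ribosomal genes on the male side, and 7 protocadherins on the male and 2 on the female side. Nuclear oxidative phosphorylation genes had 1 of 32 on each side with a median of -0.06, while the 13 mRNAs of the mitochondrial chromosome, which are not autosomal, had 4 on the male side and a median of 0.53. Without male 2 these were 12 of 13, with 3 past the thresholds and a median of 0.78, with all 9 libraries and the block 0 of 13, and in control mice 11 of 13 were on the female side with a median of -0.49. Cholesterol synthesis genes had a median of -0.03 over 17 tested. GABA and glycine receptor subunits had 1 of 16 on each side, glutamate receptors 1 of 20, Grm6, glucocorticoid targets 1 of 12, Per1, heat shock proteins 1 of 12 on each side, with Hspa5 at -0.54 and Bag3 at 0.65, and cell division genes 1 of 10, Cdk1 at 1.45. Without male 2 the female side held 6 of the oxidative phosphorylation genes and 4 of the heat shock proteins, and the male side 3 of the receptor subunits for GABA and glycine and 2 of the glucocorticoid targets.

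Of the genes that the study names for the sexes of control mice at 7 dpl, 9 were tested here under SCFA and 5 were on the male side, C3, Dusp4, Cldn11, Mbp and S100a6, with a median of 0.77. The list mixes directions, since the study names Ikzf5 as higher in females. Here Ikzf5 had a log2 fold change of 0.77 (adjusted p = 0.757, edgeR), against -1.33 in control mice. The difference of these sex effects did not pass (adjusted p = 0.270, edgeR). Ikzf5 had 59.8, 19.2 and 58.5 CPM in treated males and 36.85, 17.4 and 26.4 CPM in treated females, so male 2 lay among the females. In the later libraries it had 8.06 and 8.55 CPM in males and 9.06 CPM in the female. The genes mt-Co3 and mt-Atp6, also named as higher in females, are not autosomal and were left out of this list. That list was chosen on libraries of this series and is no independent evidence of direction. Dusp4, a phosphatase that limits MAP kinase signalling, had 13.5, 9.91 and 12.9 CPM in males and 9.01, 5.84 and 7.79 CPM in females, without overlap. In the later libraries it had 16.6 and 32.2 CPM in males and 8.65 CPM in the female. Cldn11 had 0.611, 10.9 and 1.19 CPM in males and 0.354, 0.865 and 0.469 CPM in females, so its log2 fold change of 2.92 rested on male 2 and was 0.66 without it.

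**Figure D5:**
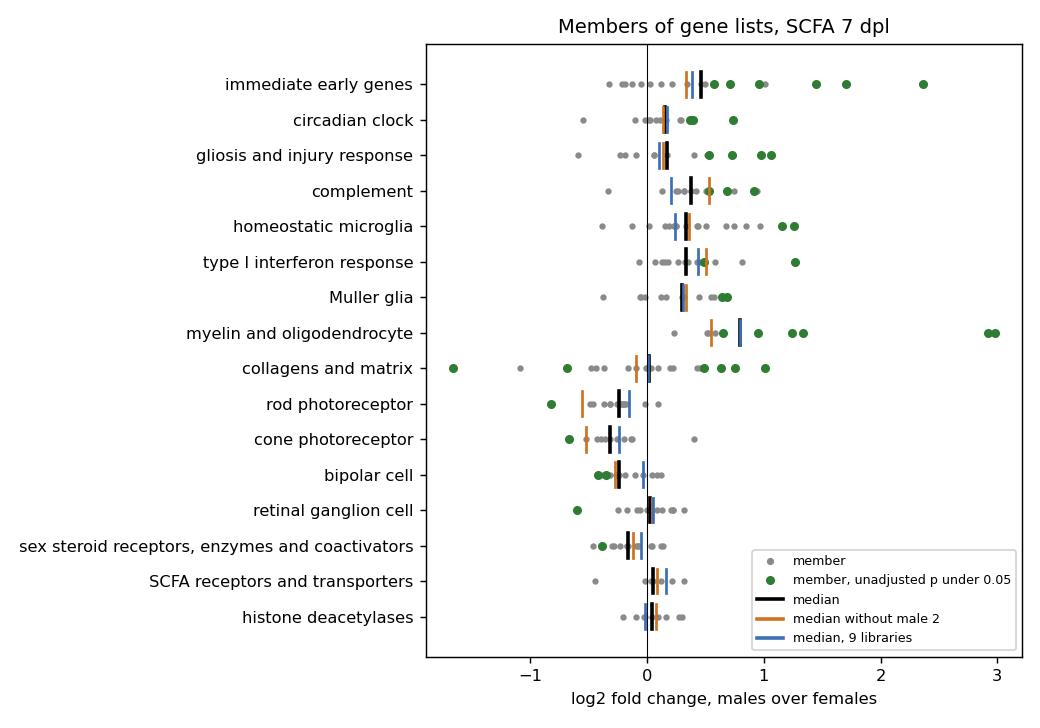
Gene lists at 7 dpl under SCFA. Each row is a list, the horizontal axis is the log2 fold change, males over females, points are single members (green at an unadjusted p under 0.05), and the upright lines are the list's median with all 6 libraries (black), without male 2 (orange) and with 9 libraries (blue). Immediate early genes have a median of 0.46, rod markers one of -0.24 and all autosomal genes one of 0.00.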

How the data were processed

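RNA of pooled retinas was extracted by column and sequenced as paired reads on a NovaSeq by the study. The authors deposited one table of raw counts per gene, with no normalization. Submitters' notes name mm10 and DESeq2, and the aligner, the counter, the annotation and the strand setting are not given in the sources used here, so reads of overlapping genes may not be told apart. Of 54532 gene IDs, 54495 were found in GENCODE M21, which gave names and GRCm38 positions. Counts were tested with edgeR 4.0.16 in R 4.3.3 (TMM, filterByExpr with a minimum count of 10, quasi-likelihood test, Benjamini-Hochberg over all genes tested, those of X, Y and the mitochondrion included). CPM are counts scaled by the total of each library. Scripts were tested on simulated data. DESeq2 1.42.0, other filters, blocks and left-out libraries were alternatives. Named genes are those called and then those with the smallest p until 10 per direction, in each list the called and leading members, and the sex steroid receptors. Members of lists named for an unadjusted p or a role were chosen after their values were seen. The comparison, its members and the lists were chosen with earlier results of these data known. The study lists no male against female test under SCFA. Some genes are not reported here.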

Additional observations from a re-analysis of the deposited data

Results flagged for a closer look

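The sex effect at 7 dpl differed between treated and control mice, by the interaction test of edgeR, for 5 unnamed loci, in log2 terms by 3.15 for Gm48700, 6.68 for Gm43230, 3.57 for Gm26736, 3.80 for Gm49152 and 5.10 for Gm44799, each at an adjusted p of 0.0762. In control mice each of the 5 was lower in all 3 males than in both females. In the later treated libraries the males were not higher for 4 of them, with Gm43230 at 0 and 0 CPM against 0.294 in the female, Gm49152 at 1.33 and 0.43 against 2.18, Gm48700 at 0.612 and 0.43 against 1.35 and Gm26736 at 0.667 and 0.592 against 1.24, and for Gm44799 they were 0.612 and 0 against 0.235.

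The sex effect under SCFA differed between 7 and 14 dpl, by the same kind of test, for 7 genes. The differences in log2 were 2.92 for Nr4a3, 2.62 for Dio2, 2.22 for Fosl2 and -1.12 for Lpin2, each at an adjusted p of 0.0497, and 1.29 for Cnp, 1.62 for S100a6 and -1.15 for Pcdh15, each at an adjusted p of 0.0758 (edgeR).

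Outside the comparisons, replicate 2 of the libraries labelled as female controls at 7 dpl held 308 counts of Ddx3y, 284 of Eif2s3y, 81 of Kdm5d and 111 of Uty, genes of chromosome Y. Groups of 3 libraries were too small for a test of single outlying values.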

How the results depend on the processing

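For treated males against females at 7 dpl (1 autosomal DEG), DESeq2 called 64 genes, 62 higher and 2 lower, the test without a filter on low counts 161, a minimum of 10 counts in every library 0, an adjusted p under 0.05 0, a robust fit 2, a single fit of all 12 groups 8, all 9 libraries 2, all 9 with the column position as a block 4, males 2, 4 and 5 with females 1 and 3, the libraries the study lists, 0, and, added after seeing the data, males 2, 4 and 5 against females 1 to 4 with that block 2. With single libraries left out the count ran from 0 to 282, and the median absolute log2 fold change from 0.153 to 0.259.

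For control mice (19) the counts were 157 without a filter, 6 with the minimum in every library, 9 at the stricter p, 0 in the single fit, 0 with female 2 added, 123 for males 2 and 3 against females 1 and 3, and 10 to 123 with single libraries left out. For the treatment interaction (5) they were 95 with DESeq2, 281 without a filter, 0 with the minimum in every library, 0 at the stricter p, 3 with the robust fit, 0 in the single fit, 0 with all libraries, with or without the block, 0 with female 2 added, and 0 to 656 with single libraries left out. At 14 dpl (0) they were 3 with DESeq2, 44 without a filter and 0 to 4 with single libraries left out. For the day interaction (7) they were 46 with DESeq2, 171 without a filter, 4 at the stricter p, 1 in the single fit, 20 with all libraries and the block, 0 without it, and 0 to 274 with single libraries left out. The causes were not tested.

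The replicate block gave 4 calls for treated mice at 7 dpl, 58 for control mice, 0 for the treatment interaction, 11 at 14 dpl and 22 for the day interaction. In treated mice at 7 dpl the correlations of the same-numbered deviations were 0.221, 0.271 and -0.062. Those of differently numbered libraries ran from -0.363 to 0.233. At 14 dpl under SCFA the same-numbered correlations were 0.277, 0.119 and 0.0401. Not every library was closest to its own number, and these values do not settle whether numbers pair the libraries.

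Of the 20 named genes, the sign turned in 2 settings, Xbp1 at 0.042 with males 2, 4 and 5 against females 1 to 4 and Slc17a6 at 0.19 with males 2, 4 and 5 against females 1 and 3. Over all alternatives the smallest log2 fold changes of the others included 0.77 for Dio2, 0.87 for Fosl2, 0.76 for Rhou, 0.46 for Cnp, 0.25 for Utp14b, 0.43 for Col9a2, 0.49 for Slc5a5, -0.46 for Srp54c, -0.63 for Rhobtb1, -0.36 for Slco4a1, -0.51 for Glt28d2 and -0.17 for Lrfn2. Depth limits low genes such as Lypd2, and 3 libraries a sex limit the rest.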
